A study of Homo sapiens with 14 samples.

Results

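STAT5 and BCL6 intervals were compared at the same genes in DLD-1 cells carrying an empty vector. A gene was taken as bound by an antibody when an interval near its start had a value of 2 or more in both libraries of that antibody, called here a replicated interval; an interval with a value in 1 library was called unreplicated. By this rule 6718 genes had a replicated STAT5 interval and 6467 a replicated BCL6 interval. They were chosen by the counts of reads in these 4 libraries and fall into 3 classes: 5422 genes with STAT5 only, 5171 with BCL6 only and 1296 with both, which is 11889 of the 43869 Ensembl genes in either antibody's empty-vector list (32109 of them in both lists) and of 44178 in the 4 separate lists of the series. The classes were set by the values of these libraries, so their sizes are a description and carry no test.

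DLD-1 is an established human colorectal adenocarcinoma line (Dukes' type C, passage 10-14). The data are chromatin immunoprecipitation with sequencing (ChIP-seq), in which DNA bound by a protein is recovered with an antibody and sequenced. The groups compared were STAT5 (rabbit polyclonal C-17, 2 libraries) and BCL6 (N-3, 2 libraries), both from cells with the empty vector and no added compound, with chromatin taken 20 h after transfection. For genes of these classes, intervals were also read in 2 treated groups: STAT5 in cells given a plasmid coding for a TIAM1 fragment with vehicle (activator, 2 libraries), and BCL6 in cells given that plasmid and 20 microM of the RAC inhibitor EHT 1864 (inhibitor, 3 libraries). The series holds 14 libraries, none labelled as input DNA or as a control antibody. Nothing in the labels ties the replicates to separate cultures, and their spread may be technical.

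STAT5 (the proteins STAT5A and STAT5B) is a transcription factor that JAK kinases activate below cytokine and growth factor receptors; in the nucleus it mostly raises transcription, and CISH and SOCS genes are its textbook targets. BCL6 is a zinc-finger protein known from germinal-centre B cells that recruits corepressors such as NCOR and BCOR and lowers transcription. Both recognise DNA of the TTCNNNGAA kind, and STAT5 and BCL6 have been described as replacing each other at shared genes.

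The values behind the classes were low. The replicated intervals were 6381 of 68320 for STAT5 (9.34%) and 6287 of 68393 for BCL6 (9.19%). The lower of the 2 library values was 2, the smallest that passes, in 89.9% of the replicated STAT5 intervals and in 89.4% of the BCL6 ones, and it was at most 7 for either antibody. At gene level, 5980 of the 6718 STAT5 genes (89.0%) and 5739 of the 6467 BCL6 genes (88.7%) stood just inside the rule with a lower value of 2 at their best interval. Just outside it, 11313 genes had values in both STAT5 libraries but at different intervals, and 11361 genes had this in the BCL6 libraries.

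The libraries of 1 antibody resembled each other no more than they resembled those of the other antibody. Of the 26414 genes with a value in STAT5 library 1, 68.3% had a value in STAT5 library 2, beside 67.6% of all genes, a ratio of 1.01. Of the 26752 genes in BCL6 library 1, 66.6% had a value in BCL6 library 2, beside 66.1% of all genes, again a ratio of 1.01. Between antibodies this ratio lay between 1.00 and 1.01 for all pairs. Summed values over the listed intervals were 81105 and 100945 in the STAT5 libraries and 84510 and 97187 in the BCL6 libraries, while the sequencing depth was not given in the sources used here.

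Genes with a replicated STAT5 interval had a replicated BCL6 interval somewhat more often than other genes. STAT5 was called at 15.3% of all 43869 genes, BCL6 at 14.7%, STAT5 alone at 12.4%, BCL6 alone at 11.8% and both at 2.95%, with neither at 72.9%. Among STAT5 genes, 19.3% also had BCL6 (95% exact Clopper-Pearson interval 18.4 to 20.3), against 13.9% (13.6 to 14.3) of genes without STAT5. Among BCL6 genes, 20.0% (19.1 to 21.0) also had STAT5, against 14.5% (14.1 to 14.9) of genes without BCL6. These and later intervals cover counting error only, and genes are not independent replicates.

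The classes were also set out by how many intervals of either list a gene had. These are the intervals that set the classes, and a gene needs at least 1 of each antibody to be in both, so shares that climb with the number follow from the rule and are no result. The share of genes in the class both was 0% at genes with 1 listed interval, 0.479% at 2, 1.65% at 3, 2.81% at 4 and 7.20% at 5 or more. The shares of STAT5 only ran over the same steps as 3.48%, 7.35%, 11.5%, 14.7% and 19.0%, and those of BCL6 only as 3.46%, 7.05%, 10.5%, 14.7% and 18.0%. Among genes with 2 intervals, BCL6 was found at 6.12% of STAT5 genes, against 7.65% of genes without STAT5. Among genes with 3 intervals, it was found at 12.5% of STAT5 genes, against 12.1% of genes without STAT5. With 4 intervals the shares were 16.0% of STAT5 genes and 17.8% of the others, and with 5 or more 27.4% and 24.4%. At a fixed total, a STAT5 interval leaves fewer for BCL6. How far this moves the shares was not tested. The part of interval number in the excess was not tested.

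**Figure D1:**
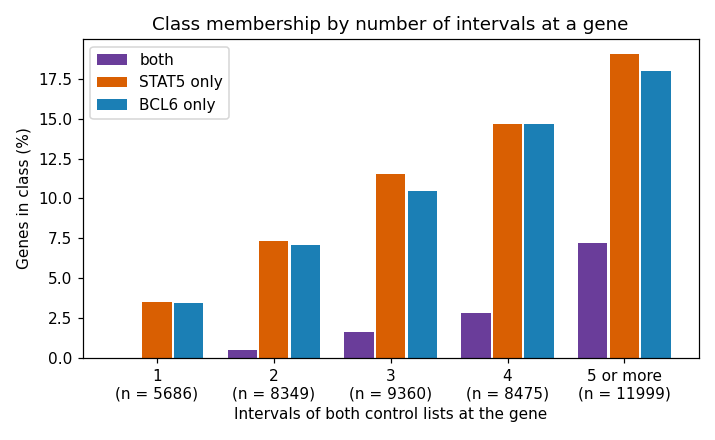
Share of genes in each class (y axis, percent) against the number of STAT5 and BCL6 intervals listed at the gene (x axis, replicated or not). The intervals counted are those that set the classes; the shares reach 7.20% for both, 19.0% for STAT5 only and 18.0% for BCL6 only at 5 or more intervals.

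Membership of a single class did not mean that the other antibody was without reads at the gene. Of the 5422 STAT5 only genes, 4673 (86.2%) had an unreplicated BCL6 interval and 749 (13.8%) had no BCL6 interval of any kind; 16.2% of the genes in neither class had no BCL6 interval. Of the 5171 BCL6 only genes, 4438 (85.8%) had an unreplicated STAT5 interval and 733 (14.2%) had no STAT5 interval, against 15.9% of the genes in neither class. The 2 BCL6 libraries had a value at 56.4% and 64.1% of STAT5 only genes, against 53.9% and 59.6% of the genes in neither class. The 2 STAT5 libraries had a value at 57.0% and 64.4% of BCL6 only genes, against 52.4% and 61.4% of the genes in neither class. Each gene in neither class comes from these lists, so it has an interval of at least 1 antibody, which raises these comparison shares by construction. Beside them, genes bound by 1 antibody in both its libraries were slightly more often listed for the other as well. The size of this difference is not read.

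A test of the values themselves called few genes or none between the antibodies. Values were summed per gene and library and compared with edgeR's quasi-likelihood test with Benjamini-Hochberg adjustment. Its filter on low sums left 78 genes, of which 0 passed an adjusted p of 0.05 (0% called) and 2 had an unadjusted p under 0.05; DESeq2 also called 0 with 2 unadjusted. Without that filter, edgeR called 3 of 43869 genes (0.00684%) at an adjusted p under 0.05, all lower in STAT5: PDE4DIP, NBPF1 and RNU2-42P. For a single gene, 2 libraries against 2 cannot give a two-sided exact permutation p below 0.333. STAT5 only and BCL6 only are therefore names of lists, and nearly all their genes are not shown to differ.

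In the class both, the highest values lay at a mixed set of genes, named by the lowest of their 4 values. REL, an NF-kappaB subunit with a central part in lymphocytes, had 4 and 7 reads in the STAT5 libraries at chromosome 2, 61107257 to 61108351 (coordinates of intervals are GRCh37), against 3 and 3 in the BCL6 libraries at 61107467 to 61107871, which lies wholly inside the STAT5 interval (405 shared bp). These intervals were upstream of the start, with lower coordinates at -1400 and -1190 bp from it. The pseudogene PSAT1P2 had 5 and 8 STAT5 reads against 4 and 4 BCL6 reads at intervals that share 457 bp and span its start; as a copy of another gene, its reads cannot be placed with certainty. ANKRD13D, which encodes a ubiquitin-binding ankyrin protein, had 3 and 4 STAT5 reads against 4 and 4 BCL6 reads, with 389 shared bp, and the U1 snRNA pseudogene RNU1-51P had 4 and 3 against 3 and 5, with 299 shared bp.

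At the other 4 the best replicated intervals of the antibodies shared no base, although an unreplicated interval of one antibody overlapped a replicated one of the other at each. ZNF416, a zinc-finger gene, had 6 and 4 STAT5 reads in an interval spanning its start against 3 and 4 BCL6 reads 448 bp further upstream. FANK1, a gene known for its expression in testis, had 3 and 4 STAT5 reads against 4 and 6 BCL6 reads across a gap of 270 bp. SIRPB2, a member of the signal-regulatory protein family, had 3 and 6 STAT5 reads against 3 and 4 BCL6 reads, 267 bp apart, and TAF13, a subunit of the general transcription factor TFIID, had 4 and 5 against 3 and 4, 1911 bp apart. The antibodies' values overlapped or touched at 6 of these 8 genes, and at REL and PSAT1P2 both STAT5 values were above both BCL6 values.

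Of the 8 STAT5 only genes with the highest values, 3 had no BCL6 interval. HIST1H2BD, which encodes a histone H2B, had 10 and 5 reads in the STAT5 libraries at chromosome 6, 26158118 to 26158987, an interval that spans its start, and no BCL6 interval. HSPA6, a heat-inducible HSP70 chaperone, had 9 and 5 STAT5 reads at chromosome 1, 161493560 to 161494138, also across its start, and no BCL6 interval. SRSF7, a splicing factor, had 5 and 8 STAT5 reads and no BCL6 interval. These 3 had listed values in both STAT5 libraries and in neither BCL6 library. A single read is never listed, so this does not show that BCL6 reads were absent.

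The other 5 had an unreplicated BCL6 interval. HES7, a repressor of the segmentation clock, had 7 and 7 STAT5 reads and a best BCL6 interval of 2 and 0. SLC25A45, of the mitochondrial carrier family, had 7 and 6 STAT5 reads against 4 and 0 for BCL6. PDCD4, an inhibitor of translation and a tumour suppressor, had 6 and 6 STAT5 reads against 0 and 2 for BCL6. BACH1, a heme-regulated repressor, had 5 and 8 STAT5 reads against 2 and 0 for BCL6, and CDCA3, which helps entry into mitosis, had 7 and 5 against 2 and 0. The STAT5 and BCL6 values at these best intervals did not overlap at any of the 8. Their choice by high STAT5 values without a replicated BCL6 interval favours this.

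The 8 BCL6 only genes with the highest values were 5 protein-coding genes and 3 pseudogenes. KRT6B, a keratin of stratified epithelia, had 0 and 5 STAT5 reads against 9 and 6 BCL6 reads at chromosome 12, 52846682 to 52847386. NDUFB9, a subunit of respiratory complex I, had 4 and 0 STAT5 reads against 6 and 5 BCL6 reads, and PIGF, an enzyme of GPI-anchor synthesis, had 0 and 4 against 6 and 5. TMEM52, a transmembrane protein, had 0 and 2 STAT5 reads against 6 and 5 BCL6 reads. At its best interval, STAT5 was thus listed in 1 library at each of these 4 genes.

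CMTM8, a MARVEL-domain membrane protein, had 5 and 0 STAT5 reads against 5 and 5 BCL6 reads, so that one STAT5 library equalled the BCL6 libraries there. The small-RNA pseudogene RNU7-67P had 0 and 4 STAT5 reads against 8 and 7 BCL6 reads, and the ribosomal protein pseudogene RPL21P24 had 0 and 4 against 7 and 6. RNU2-42P, a U2 snRNA pseudogene, was the only one of the 8 without a listed STAT5 interval, though single reads are never listed. It had 6 and 6 BCL6 reads at chromosome 10, 127579479 to 127580103, and a further BCL6 interval with 5 and 4. Another of its BCL6 intervals, with 0 and 7 reads, is also listed at the neighbouring gene FANK1. The STAT5 interval of 3 and 4 reads at FANK1 overlaps it but is not listed at RNU2-42P.

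**Figure D2:**
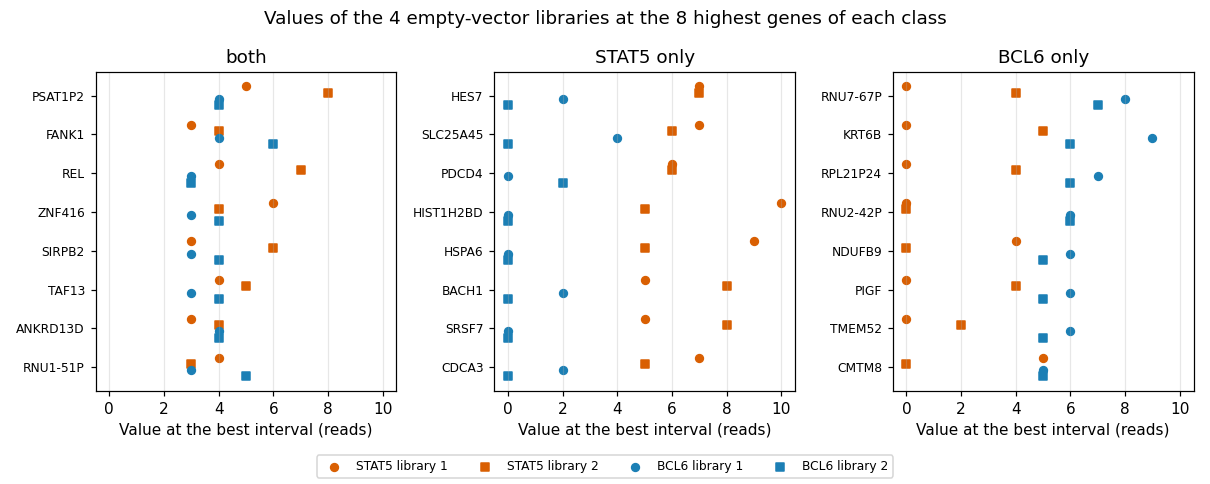
Values at the best interval of each antibody (x axis, reads) in the 2 STAT5 and 2 BCL6 empty-vector libraries at the 8 highest genes of each class. All 4 libraries lie at 3 or more for the class both, HIST1H2BD reaches 10 in STAT5 library 1, and KRT6B reaches 9 in BCL6 library 1.

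Too few known targets were in a class to set them apart from other genes. Of 18 textbook STAT5 targets, 3 had a replicated STAT5 interval and 3 a replicated BCL6 interval (16.7% for each; exact interval 3.58 to 41.4). ID1 and IGF1 were STAT5 only, CISH and OSM were BCL6 only and SOCS3 was in both. Of 24 BCL6 targets, 4 had STAT5 (16.7%; 4.74 to 37.4) and 1 had BCL6 (4.17%; 0.105 to 21.1). ID2 and KLF6 were among the STAT5 only genes and CDKN1A was BCL6 only. Protein-coding genes as a whole had STAT5 at 16.2% and BCL6 at 14.5%, and all genes at 15.3% and 14.7%; these lie inside the exact intervals of both lists.

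SOCS3, which encodes a feedback inhibitor of JAK signalling, had 2 and 2 reads in the STAT5 libraries at chromosome 17, 76356998 to 76357667, against 2 and 3 in the BCL6 libraries at 76357245 to 76357846. These intervals share 423 bp, about 1 kb upstream of the gene start. CISH, a relative of SOCS3 and the classical STAT5-induced gene, had 0 and 2 reads at one STAT5 interval and 2 and 0 at another, against 2 and 2 reads in the BCL6 libraries at chromosome 3, 50649834 to 50650449. All 4 libraries therefore had reads near CISH, and the position of the STAT5 reads alone kept it out of the class both. ID1, an inhibitor of helix-loop-helix factors, had 2 and 2 STAT5 reads at chromosome 20, 30193642 to 30194053, against 6 unreplicated BCL6 intervals.

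The promoters of these genes and of ZNF416 are shown because they differ in the sequence that both factors recognise. Among the named promoters set out this way, only CISH and ZNF416 held a match, so the promoters shown are not typical. They run from 250 bases before to 50 after the start, 5′ to 3′ on the gene's strand, from RefSeq (GRCh38.p14), and capitals mark TTCNNNGAA.
CISH: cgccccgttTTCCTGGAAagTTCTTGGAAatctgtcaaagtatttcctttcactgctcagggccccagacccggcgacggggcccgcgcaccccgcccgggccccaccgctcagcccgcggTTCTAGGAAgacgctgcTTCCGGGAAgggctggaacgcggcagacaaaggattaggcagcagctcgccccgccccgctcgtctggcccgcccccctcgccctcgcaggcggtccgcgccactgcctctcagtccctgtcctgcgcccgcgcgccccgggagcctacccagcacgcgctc
SOCS3: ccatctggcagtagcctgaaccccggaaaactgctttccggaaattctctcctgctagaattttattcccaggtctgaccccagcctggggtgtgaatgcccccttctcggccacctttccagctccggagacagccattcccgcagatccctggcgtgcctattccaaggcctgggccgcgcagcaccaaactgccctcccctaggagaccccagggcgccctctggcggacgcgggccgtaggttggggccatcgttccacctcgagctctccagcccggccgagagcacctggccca
ID1: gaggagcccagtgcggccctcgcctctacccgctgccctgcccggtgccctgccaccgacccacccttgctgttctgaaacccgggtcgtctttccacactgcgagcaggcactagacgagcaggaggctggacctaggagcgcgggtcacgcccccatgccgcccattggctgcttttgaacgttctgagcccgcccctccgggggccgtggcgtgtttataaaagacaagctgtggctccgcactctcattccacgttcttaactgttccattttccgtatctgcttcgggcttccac
ZNF416: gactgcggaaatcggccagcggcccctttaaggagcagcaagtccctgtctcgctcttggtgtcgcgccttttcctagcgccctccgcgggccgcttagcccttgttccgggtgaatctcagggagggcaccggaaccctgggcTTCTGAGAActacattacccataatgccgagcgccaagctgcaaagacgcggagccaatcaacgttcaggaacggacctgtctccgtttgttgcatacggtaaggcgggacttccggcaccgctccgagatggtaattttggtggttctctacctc
They lie at chr3:50611725-50612024, chr17:78360876-78361175 and chr19:57578862-57579161 on the minus strand and chr20:31605039-31605338 on the plus strand. CISH holds 4 matches, at bases 10, 21, 122 and 139 of the window, ZNF416 holds 1 at base 145, and SOCS3 and ID1 hold none. A match is not a measured site, and no match says only that these letters are not in this window; the replicated intervals at SOCS3, CISH and ID1 do not span the start.

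IGF1, a growth hormone target, had 3 and 4 STAT5 reads at an interval whose lower coordinate lay at -2368 bp from the gene start, and OSM, an IL-6 family cytokine, had 2 and 3 BCL6 reads. CDKN1A, which encodes the cyclin-dependent kinase inhibitor p21, had no STAT5 interval, against 2 and 2 BCL6 reads at chromosome 6, 36645096 to 36645418. Among BCL6 targets with STAT5, ID2, another inhibitor of helix-loop-helix factors, had 2 and 3 STAT5 reads, and KLF6, a zinc-finger tumour suppressor, 2 and 2. None of these values exceeded 4 reads in a library. The other antibody had unreplicated intervals at 4 of these genes. Its best values were 0 and 6 BCL6 reads at ID2, 5 and 0 at IGF1 and 3 and 0 at KLF6, and 3 and 0 STAT5 reads at OSM.

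The factors' own genes were in the lists too. STAT5A was in neither class, with a STAT5 interval of 0 and 3 reads across its start and no BCL6 interval. STAT5B was BCL6 only: its best STAT5 interval had 3 and 0 reads, against 2 and 3 BCL6 reads at chromosome 17, 40431418 to 40431960. BCL6 itself, which is known to repress its own gene in B cells, had no STAT5 interval and only unreplicated BCL6 intervals of 0 and 3 and of 0 and 2 reads.

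TTCNNNGAA was about as common in the promoters of all classes. It was searched on both strands in the 4160 class genes with a RefSeq promoter and found in 8.09% of both, 7.79% of STAT5 only (6.65 to 9.06), 8.23% of BCL6 only (6.97 to 9.62) and 6.77% of the genes in neither class (6.30 to 7.26). All 27305 promoters of the table held it in 7.88%, and all genes of the empty-vector lists in 7.11%. TTCCNNGAA, a subset of it, was in 5.62% of both, 4.93% of STAT5 only, 5.16% of BCL6 only and 4.16% of neither. TTCCTAGAA, a smaller subset, was in 0.449%, 0.302%, 0.637% and 0.296%, in the same order. Where a replicated interval spanned the start, TTCNNNGAA was in 23 of 223 promoters for STAT5 (10.3%; 6.65 to 15.1) and in 18 of 170 for BCL6 (10.6%; 6.40 to 16.2). TTCCNNGAA was in 4.93% of these promoters for STAT5 (2.49 to 8.65) and 8.24% for BCL6 (4.58 to 13.4). TTCCTAGAA was in 0 of 223 for STAT5 (0 to 1.64%) and 3 of 170 for BCL6 (1.76%, 0.365 to 5.07). It was in 0.341% of all genes of these lists. Median GC content was 60% in the spanned promoters for STAT5 and 56.8% for BCL6, against 62.7% over all genes of these lists. The part of GC content in these shares was not tested.

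JAK-STAT and corepressor genes were in the classes about as often as all genes (15.3% with STAT5, 14.7% with BCL6). Of 36 JAK-STAT pathway genes, 5 were STAT5 only (among them STAT3, PTPN6 and SOCS5) and 5 BCL6 only (TYK2, STAT5B, IL6ST, IL7R, PIAS1), with 0 in both, which is 13.9% with each antibody (4.67 to 29.5). SOCS5, a SOCS family member, had replicated STAT5 intervals of 2 and 6 and of 2 and 4 reads, and PIAS1, a SUMO ligase of the STAT pathway, had 5 and 3 BCL6 reads. Of 28 corepressors and chromatin repressors, 4 were STAT5 only (NCOR1, CTBP1, RNF2, CBX8), 2 BCL6 only (MTA3, SIN3B) and 1 in both: KDM2B, a histone demethylase of a Polycomb complex, with 4 and 2 STAT5 reads against 3 and 2 BCL6 reads, 1571 bp apart. An unreplicated STAT5 interval at KDM2B, with 3 and 0 reads, lay inside its replicated BCL6 interval. MTA3, a known partner of BCL6 in B cells, had 2 and 4 BCL6 reads. The list as a whole had 17.9% with STAT5 (6.06 to 36.9) and 10.7% with BCL6 (2.27 to 28.2).

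DNA damage genes are of interest because the title of the series names the DNA damage response. Of 30 DNA damage signalling genes, 4 were STAT5 only (RAD17, RAD1, TOPBP1, WEE1), 2 BCL6 only (H2AX, RAD50) and 3 in both, which gives 23.3% with STAT5 (9.93 to 42.3) and 16.7% with BCL6 (5.64 to 34.7). The shares over all genes, 15.3% and 14.7%, lie inside these intervals. ATM, the kinase that senses double-strand breaks, had 2 and 2 STAT5 reads against 3 and 3 BCL6 reads, 369 bp apart. An unreplicated STAT5 interval there, with 2 and 0 reads, lay inside the BCL6 one. MDC1, which binds the histone mark at breaks, had 2 and 5 against 3 and 3, 515 bp apart. PPM1D, a phosphatase that switches the response off, had 7 and 2 STAT5 reads against 3 and 6 BCL6 reads, 2505 bp apart. The 2 libraries of each antibody thus differed more there than the antibodies did. An unreplicated BCL6 interval at PPM1D, with 0 and 2 reads, overlapped the replicated STAT5 one.

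Repair genes were found in every class, with low values. Of 30 homologous recombination and Fanconi genes, 3 were STAT5 only (among them BARD1 and SLX4), 2 BCL6 only (XRCC2, BLM) and 2 in both: 16.7% with STAT5 (5.64 to 34.7) and 13.3% with BCL6 (3.76 to 30.7), near the 15.3% and 14.7% of all genes. FANCC, of the Fanconi core complex, had 2 and 2 STAT5 reads against 2 and 2 BCL6 reads, 97 bp apart; FANCL, its ubiquitin ligase, had 2 and 2 against 3 and 6. Of 38 excision and mismatch repair genes, 7 were STAT5 only (LIG3, MUTYH, TDG, POLB, XPA, ERCC6, MSH3) and 11 BCL6 only (among them PARP1, PARP2, OGG1, UNG, ERCC5 and MLH3), with 0 in both: 18.4% with STAT5 (7.74 to 34.3) and 28.9% with BCL6 (15.4 to 45.9). Beside 15.3% of all genes with STAT5 and 14.7% with BCL6, the BCL6 share is the one whose interval lies above the share over all genes; with 14 lists looked at and members chosen with results known, nothing is read from it. Their best values were low: LIG3, a DNA ligase, had 2 and 4 STAT5 reads, and UNG, a uracil-DNA glycosylase, had 2 and 4 BCL6 reads. In single libraries, 22 and 32 of the 38 had a value for STAT5, against 26 and 33 for BCL6, and these ranges overlap.

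The remaining pathway lists are read against 15.3% of all genes with STAT5 and 14.7% with BCL6, which lie inside the exact intervals of all 4. Cell cycle genes (40) had 6 in STAT5 only, among them CDK6 and AURKA, and 4 in BCL6 only, among them CDK1 and CDK4, with 0 in both (15.0% with STAT5, 5.71 to 29.8; 10.0% with BCL6, 2.79 to 23.7). RAC1 and PAK pathway genes (35) had 4, 3 and 0, with RAC3 and ELMO1 in STAT5 only and LIMK2 in BCL6 only (11.4% with STAT5 and 8.57% with BCL6). WNT pathway genes (44) had 4 in STAT5 only, 7 in BCL6 only and 1 in both, the secreted WNT antagonist SFRP1, with 2 and 2 STAT5 reads against 2 and 2 BCL6 reads. These were 11.4% with STAT5 (3.79 to 24.6) and 18.2% with BCL6 (8.19 to 32.7). FZD6, a WNT receptor, had 5 and 4 STAT5 reads, and FZD8, another, had 3 and 7 BCL6 reads. Apoptosis genes (30) had 7 in STAT5 only, 5 in BCL6 only and 1 in both, the death receptor FAS, with 2 and 2 STAT5 reads across its start against 2 and 5 BCL6 reads. Apoptosis genes thus had 26.7% with STAT5 (12.3 to 45.9) and 20.0% with BCL6 (7.71 to 38.6).

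Markers of colon and of other cell types were also covered, although a ChIP interval does not measure expression. Of 20 colon epithelium markers, 5 were STAT5 only (CDX2, KRT8, KRT19, MUC2, ELF3), 1 was BCL6 only (CEACAM6) and 1, the adhesion protein EPCAM, was in both with 2 and 2 STAT5 reads against 3 and 2 BCL6 reads. That gives 6 of 20 with STAT5 (11.9% to 54.3%) and 2 of 20 with BCL6 (1.23% to 31.7%), while in single libraries 14 and 16 of the 20 had a STAT5 value, against 12 and 18 a BCL6 value. Of 12 B cell markers, 4 were STAT5 only (33.3% with STAT5, 9.92 to 65.1) and 1 BCL6 only (8.33% with BCL6, 0.211 to 38.5). Of 14 fibroblast and endothelial markers, 1 fell in each class, with THY1 in both at 5 and 2 STAT5 reads against 2 and 2 BCL6 reads. The shares over all genes, 15.3% with STAT5 and 14.7% with BCL6, lie inside the exact intervals of all 3 marker lists.

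STAT5 only genes were somewhat more often protein-coding than BCL6 only genes. Protein-coding genes made up 40.0% of both (37.3 to 42.7), 41.6% of STAT5 only (40.3 to 42.9) and 37.9% of BCL6 only (36.6 to 39.2), beside 39.0% of all genes. In single libraries protein-coding genes were 40.0% and 40.0% for STAT5, against 38.1% and 39.8% for BCL6. Families are given beside 15.3% of all genes with STAT5 and 14.7% with BCL6. Olfactory receptors, the odorant receptors of the nose, had 94 of 536 genes with STAT5 (17.5%) and 97 with BCL6 (18.1%). Zinc-finger ZNF genes had 62 of 492 (12.6%) with STAT5 and 56 (11.4%) with BCL6, and ribosomal protein genes with their pseudogenes 121 of 866 (14.0%) and 120 (13.9%). Small RNA genes had 461 of 3018 (15.3%) with STAT5 and 494 (16.4%) with BCL6; LINC and antisense RNA genes had 210 of 1360 (15.4%) and 192 (14.1%). Of 59 histone genes, which lie close together and can share intervals, 13 had STAT5 (22.0%), 7 had BCL6 (11.9%) and 0 had both.

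The intervals of the classes lay at similar places. Interval centres had a median position of -1017 bp from the gene start in STAT5 only and -1117 bp in BCL6 only. Replicated STAT5 intervals spanned the start in 10.2% of pairs of interval and gene in STAT5 only and 10.9% in both, and replicated BCL6 intervals in 9.63% in BCL6 only and 10.3% in both. Unreplicated intervals spanned it in 7.03% for STAT5 and 6.94% for BCL6; they were narrower, with a median width of 300 bp for either antibody, against 475 bp for replicated STAT5 and 470 bp for replicated BCL6 intervals. An interval near several gene starts counts for each: 767 of the 6381 replicated STAT5 intervals and 621 of the 6287 BCL6 ones did so.

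**Figure D3:**
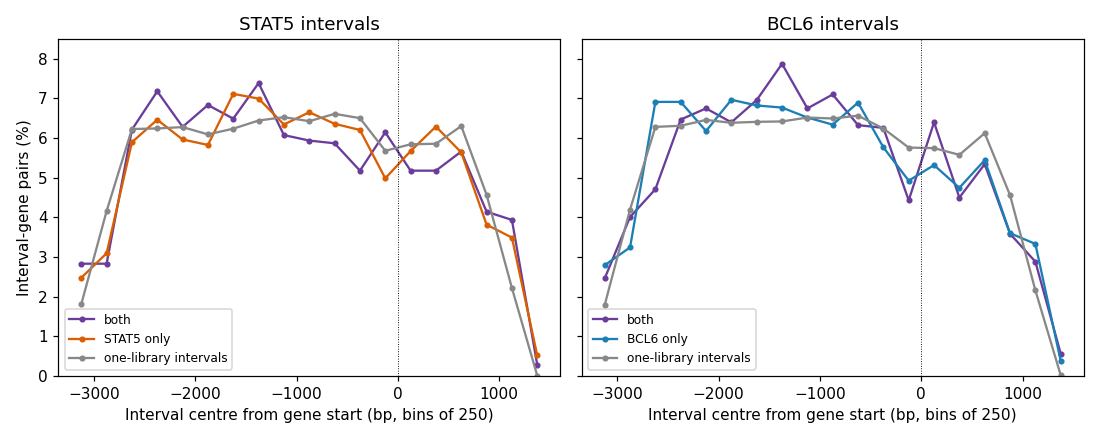
Share of interval and gene pairs (y axis, percent) by distance of the interval centre from the gene start (x axis, bp, bins of 250), for replicated intervals of each class and for unreplicated ones, STAT5 left and BCL6 right. No curve peaks at the start, and the median positions of STAT5 only (-1017 bp) and BCL6 only (-1117 bp) lie close together.

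At most genes of the class both, the replicated intervals of the antibodies were at different places. They shared at least 1 bp at 440 of the 1296 genes (34.0%; 31.4 to 36.6), which is 388 distinct places with a median overlap of 291 bp. At the other 856 genes the median gap was 895 bp, with a range of 1 to 3429 bp. Of all replicated STAT5 intervals, 395 of 6381 (6.19%; 5.61 to 6.81) lay on a replicated BCL6 interval, against 3.74% of unreplicated STAT5 intervals. Of replicated BCL6 intervals, 400 of 6287 (6.36%; 5.77 to 6.99) lay on a replicated STAT5 interval, against 3.89% of unreplicated BCL6 intervals. With unreplicated intervals counted too, 2566 of the replicated STAT5 intervals (40.2%; 39.0 to 41.4) lay on a BCL6 interval of any kind, and 2473 of the replicated BCL6 intervals (39.3%; 38.1 to 40.6) on a STAT5 interval of any kind. The widths given above differ between these groups, and their part in the shares was not tested.

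Genes of both were concentrated on a stretch of chromosome 2. On that chromosome 247 of 3754 genes (6.58%) were in both, against 0.942% on chromosome 22, the lowest autosome, and 4.49% on chromosome 20, the next highest. Between 30 and 75 Mb of chromosome 2 lay 163 of the 1296 genes of both (12.6%), although only 1.73% of all genes lie there; 21.5% of its 757 genes were in both, against 2.80% on the rest of that chromosome. The single classes were raised there too, with STAT5 only at 19.2%, against 12.3% on the rest, and BCL6 only at 22.6%, against 11.6%. The bounds of this stretch were chosen after the data were seen. REL, PSAT1P2, EPCAM and FANCL are in this stretch. Genes there had 5.54 listed intervals each, against 3.48 elsewhere, and BCL6 was found at 52.9% of its STAT5 genes, against 38.1% of its genes without STAT5. Without chromosome 2, BCL6 was found at 17.6% of STAT5 genes, against 13.6% of genes without STAT5. Chromosome X stood at the other end, with 20 STAT5 only, 22 BCL6 only and 0 both among 1388 genes, and 1.62 listed intervals a gene. DNA copy number was not measured here, so its part in these differences was not tested.

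**Figure D4:**
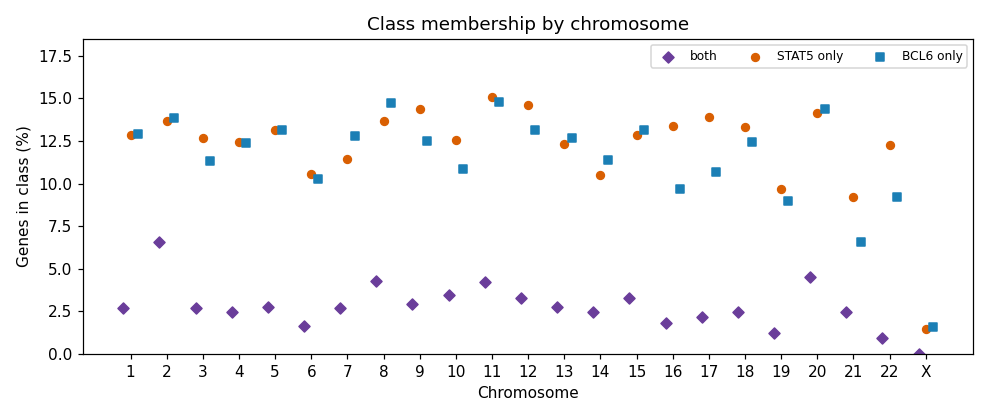
Share of genes in each class (y axis, percent) by chromosome (x axis). Chromosome 2 has 6.58% of its genes in both, above every other chromosome, while chromosome X has 1.44% in STAT5 only, 1.59% in BCL6 only and none in both.

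Genes of both were also those most often listed in the treated cells, whose libraries the classes did not use. Activator STAT5 intervals were listed at 41.7% of both (39.0 to 44.5), 30.9% of STAT5 only (29.6 to 32.1), 32.8% of BCL6 only (31.5 to 34.1) and 26.4% of neither (25.9 to 26.9), beside 28.2% of all genes. Inhibitor BCL6 intervals were listed at 7.33% of both (5.97 to 8.89), 4.91% of STAT5 only (4.35 to 5.51), 4.60% of BCL6 only (4.05 to 5.21) and 3.31% of neither (3.11 to 3.51), beside 3.78% of all genes. In either treated list the class named for the antibody stood within 2 percentage points of the class named for the other. A treated list may leave out bases of empty-vector peaks of its own antibody, so a gene may be listed only beside or away from such a peak. How this acts on each class was not tested.

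By share alone, the same order of both above the rest held without chromosome 2 and among genes with many intervals, with smaller gaps. Without chromosome 2, activator STAT5 was at 37.5% of both, 30.4% of STAT5 only, 31.9% of BCL6 only and 26.1% of neither, and inhibitor BCL6 at 5.62%, 4.42%, 4.04% and 3.21%. Among genes with 5 or more empty-vector intervals, activator STAT5 was at 44.1% of both, 33.7% of STAT5 only, 37.3% of BCL6 only and 33.8% of neither. Among genes with 3 or 4, it was at 38.0%, 30.3%, 30.9% and 28.3%. For inhibitor BCL6 the shares were 8.10% of both, 5.82% of STAT5 only, 5.88% of BCL6 only and 4.53% of neither with 5 or more intervals, and 5.87%, 4.82%, 4.09% and 3.54% with 3 or 4. STAT5 only genes with 5 or more intervals stood near neither for activator STAT5. For inhibitor BCL6 they stood above neither, though the exact intervals overlapped (4.90 to 6.86 against 4.04 to 5.06). For inhibitor BCL6 the exact interval of both overlapped those of STAT5 only and BCL6 only in all these subsets. At 3 or 4 intervals it was 3.76 to 8.67 and also overlapped neither (3.23 to 3.88). For activator STAT5 the exact interval of both lay above the others in each of these subsets. Among protein-coding genes it did not: activator STAT5 was at 38.4% of both (34.2 to 42.8) and 34.3% of BCL6 only (32.2 to 36.5).

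**Figure D5:**
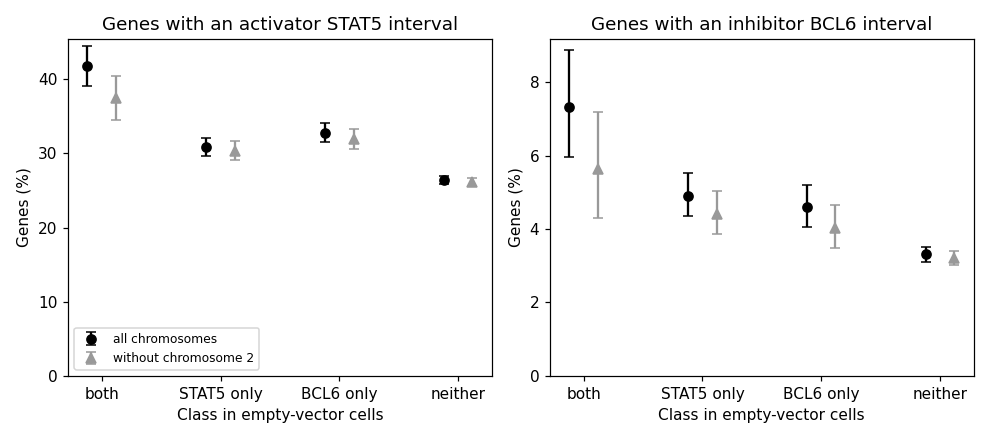
Share of genes of each class with an activator STAT5 interval and with an inhibitor BCL6 interval (y axis, percent, with exact 95% intervals), over all chromosomes in black and without chromosome 2 in grey. Both stands highest in either list, at 41.7% and 7.33%, and STAT5 only (30.9% and 4.91%) lies close to BCL6 only (32.8% and 4.60%).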

How the data were processed

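The submitters' processing notes name CASAVA 1.8.2, Bowtie 0.12.7 and the build GRCh37; the sources used here do not give the peak caller. Lists deposited by the authors give, per interval and library, 1 whole number, read here as a count of reads, with intervals from 3000 bp upstream to 1000 bp downstream of Ensembl gene starts. The header does not name the quantity; every value was 0 or at least 2, so a single read is never listed.

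Samples were grouped by title, antibody and treatment. Each distinct interval was counted once per gene. Classes, shares with exact Clopper-Pearson intervals, overlaps (at least 1 bp) and motif matches were computed in Python 3.11.15 with pandas 2.3.3 and SciPy 1.17.1. Summed counts per gene were tested with edgeR 4.0.16 (TMM, filterByExpr), with DESeq2 1.42.0 as an alternative, after a check on simulated data. The simulated libraries varied less than these, so the check does not show what the test can find here. Members, the 14 gene lists and 6 families were chosen with earlier results of these data known. Genes were named where they were members of the STAT5 or BCL6 target lists in a class, the 8 highest with a symbol per class, or members of another list in both; some members are not reported here, and other list members are named to show a list's make-up, after their values were seen. Symbols and gene types came from RefSeq GRCh38.p14 (26166 of 26333 symbols matched), whose coordinates were used for promoters only. The 2 lists of shared intervals and the 5 libraries of activator BCL6 and inhibitor STAT5 were not used here.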

Additional observations from a re-analysis of the deposited data

How the results depend on the processing

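Counts follow the order STAT5 only, BCL6 only, both. They fell to 711, 701 and 27 with a value of 3 or more in both libraries, to 3447, 3135 and 441 within 1000 bp of the start, and to 2256, 1959 and 518 for protein-coding genes. A value in at least 1 library gave 32109 in both (5944 and 5816 for the others), and counting places gave 394 in both. They stayed within 1.5 times when intervals went to the nearest start (4910, 4806, 1133), without chromosome 2 (4909, 4652, 1049) and, an alternative chosen after seeing the data, without its stretch from 30 to 75 Mb (5277, 5000, 1133). Leaving out 1 library gave 1947 to 25046, 1843 to 24230 and 4242 to 4771, since 1 library then sets an antibody's genes. With only STAT5 library 2 or 1, 71.5% or 65.6% of BCL6 genes also had STAT5, beside 67.6% and 60.2% of all genes.

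For edgeR's test of STAT5 against BCL6, 0 of 78 genes were called with DESeq2 size factors (5 unadjusted) and by DESeq2. Without the filter on low sums, 3 of 43869 genes were called (0.00684%), all lower in STAT5 and all of the class BCL6 only: PDE4DIP with sums of 0 and 5 in STAT5 against 38 and 13 in BCL6, NBPF1 with 0 and 0 against 6 and 33, and RNU2-42P with 0 and 0 against 11 and 20. PDE4DIP and NBPF1 have near-identical copies, so their reads are uncertain, and these genes were chosen by the same values as their class. Leaving out 1 library changed the genes kept by the filter to between 567 and 1141. The lone library is then assumed to vary like the others, so calls from these fits are not read. The median log2 of STAT5 over BCL6 was -0.192 without STAT5 replicate 1 and -0.712 without STAT5 replicate 2. It was 0.387 without BCL6 replicate 1 and 0.52 without BCL6 replicate 2. Replicate numbers only name the libraries (accession order), and a fit with them as a replicate block called 0 of 78. The deviations of same-numbered libraries correlated at -0.097 over these 78 genes. Values of 2 reads limit what a single interval can show.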

Other observations

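With a value of 3 or more required in all 4 libraries, 27 genes had both antibodies, which is 3.66% of the 738 STAT5 genes and 3.71% of the 728 BCL6 genes left, where STAT5 passed at 1.68% of all genes and BCL6 at 1.66%. Of the 27, 11 (40.7%) lay between 30 and 75 Mb of chromosome 2. Outside chromosome 2, the 27 genes include SNAI1 and CTNNBL1, which lie on chromosome 20. SNAI1, a repressor of epithelial genes, had 4 and 3 reads in the STAT5 libraries against 3 and 4 in the BCL6 libraries. CTNNBL1, a spliceosome-associated protein, had 3 and 5 against 3 and 3. These genes were chosen after their values were seen.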
